A study of Oryza sativa with 24 samples.

Results

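The pollen C2H2 and C3H zinc finger transcripts of rice (Oryza sativa, cultivar Zhonghua 10) are described here as 81 features of the Affymetrix Rice Genome Array. They were selected on signal in pollen against callus, leaf and root: they are the rows that the study's table of 772 pollen-preferential transcription factor transcripts assigns to the C2H2 family (54) or the C3H family (27), out of 57258 features measured besides the array's controls. The table gives 71 of the 81 a locus, and these fall on 65 distinct loci. A name from RefSeq was matched to 38 members as a gene and to 16 of them as an informative name such as OsC3H63; the others are called here by locus or, without one, by the array's own identifier.

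The study followed pollen from the microspore to the germinating grain with 24 arrays, 3 for each of 8 tissues. Staged anthers gave uninucleate microspores (UNMs), pollen at the bicellular stage (BCP) and pollen at the immature tricellular stage (TCP). Mature grains (MPGs) came from flowers at anthesis, and germinated grains (GPGs) had been kept for about 10 min in germination medium in vitro. By the study's own counts UNMs, BCP and TCP were not fully pure, BCP least so, and part of the GPG grains had not germinated. The sporophytic tissues were callus induced from seed for about 1 month on medium with the auxin 2,4-D, root of 2-week-old seedlings, and leaf, which the labels describe as flag leaf of plants of 110 to 120 days and the study's methods as leaf of young seedlings. All were wild-type plants or cells of 1 cultivar without a transgene, and the methods describe the 3 arrays of a tissue as independent biological replicates.

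A zinc finger is a short fold of a protein held together by a zinc ion. In the C2H2 type the ion is bound by a pair of cysteines and a pair of histidines, and such fingers mostly bind DNA, as in the plant regulators SUPERMAN and TRANSPARENT TESTA 1. In the C3H (CCCH) type it is bound by 3 cysteines and 1 histidine, and many of these proteins bind RNA and act on its processing or decay. Pollen is known to carry a large store of transcripts made before anthesis and translated during germination and tube growth.

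Each value below is a MAS5 signal, the array's linear measure of brightness for 1 feature, which the authors scaled to a common average of 500 per array. Signals of different features depend on their probes, so levels are compared between tissues within a feature and not between features. Replicate arrays of a tissue correlated with Pearson r of 0.928 to 0.997 across features, the lowest being in root, where replicate 3 stood apart. The MPG and GPG arrays stood apart from the other 18: their median signal was 146.9 to 197.9 against 51.3 to 105.2, and the geometric mean of the 9 spiked hybridisation control features was 8989 to 17347 against 1458 to 4228. Since all 6 arrays with these values are late pollen, array and stage cannot be told apart, and changes into MPGs are given with 3 other scalings. As a check of the tissues, 7 features of leaf photosynthesis genes summed to 78867 to 104575 in leaf and to at most 1981 elsewhere. The 23 features of pollen tube and vegetative cell genes summed to 802082 to 818125 in MPGs and to at most 94758 in a sporophytic array, but 14 of the 23 had their highest mean in callus, leaf or root, so the sum rests on the other 9, among them EXPB9 (mean 218184 in MPGs) and a feature of CPK2 (186843). The sperm list had 1 match, which was highest in callus (19367 to 27445) and so did not mark pollen, and the root list had none.

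The members were chosen for pollen signal, so their excess over callus, leaf and root is a description and carries no test. In each of the 81 the median of the 3 arrays of the highest stage was at least 2.06 times the highest of the 9 sporophytic arrays, with a median ratio of 4.15. The largest ratio, 403, belonged to LOC_Os02g44120, a C2H2 gene with 24074, 22676 and 28223 in TCP and at most 59.7 in any sporophytic array. Just inside the limit of 2 lay LOC_Os05g51830 (2.06) and OsC3H32 (2.06), both of which had high signals in callus or leaf as well. Just outside it, among named zinc finger features that are not members, lay OsC3H40 (1.87) and OsC3H47 (1.67). The ratio alone did not separate members from the rest, since 5 of 62 such features had a ratio of 2 or more. The highest was that of a feature of ZFP33 (6.18), named after its values were seen. It had means of 33508 in MPGs and 44067 in GPGs against at most 6721 in a sporophytic tissue. The study's choice also used a Z-score, and whether it lists these features outside the members was not checked. A highest sporophytic mean of at least 200 was found in 24 members.

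Members are named with findings only where their highest tissue mean was at least 200, which held for 66 of 81, namely 40 of 54 C2H2 and 26 of 27 C3H features. Nearest above that limit were LOC_Os07g04650 (201) and LOC_Os09g26210 (211), and nearest below it LOC_Os04g44260 (197.97) and LOC_Os07g39970 (197.6). Among the 15 below was ART1, a C2H2 regulator of aluminium tolerance in rice roots, named after its values were seen, whose highest mean was 112.9. The heat map of the 66 members by array shows where each was high.

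**Figure D1:**
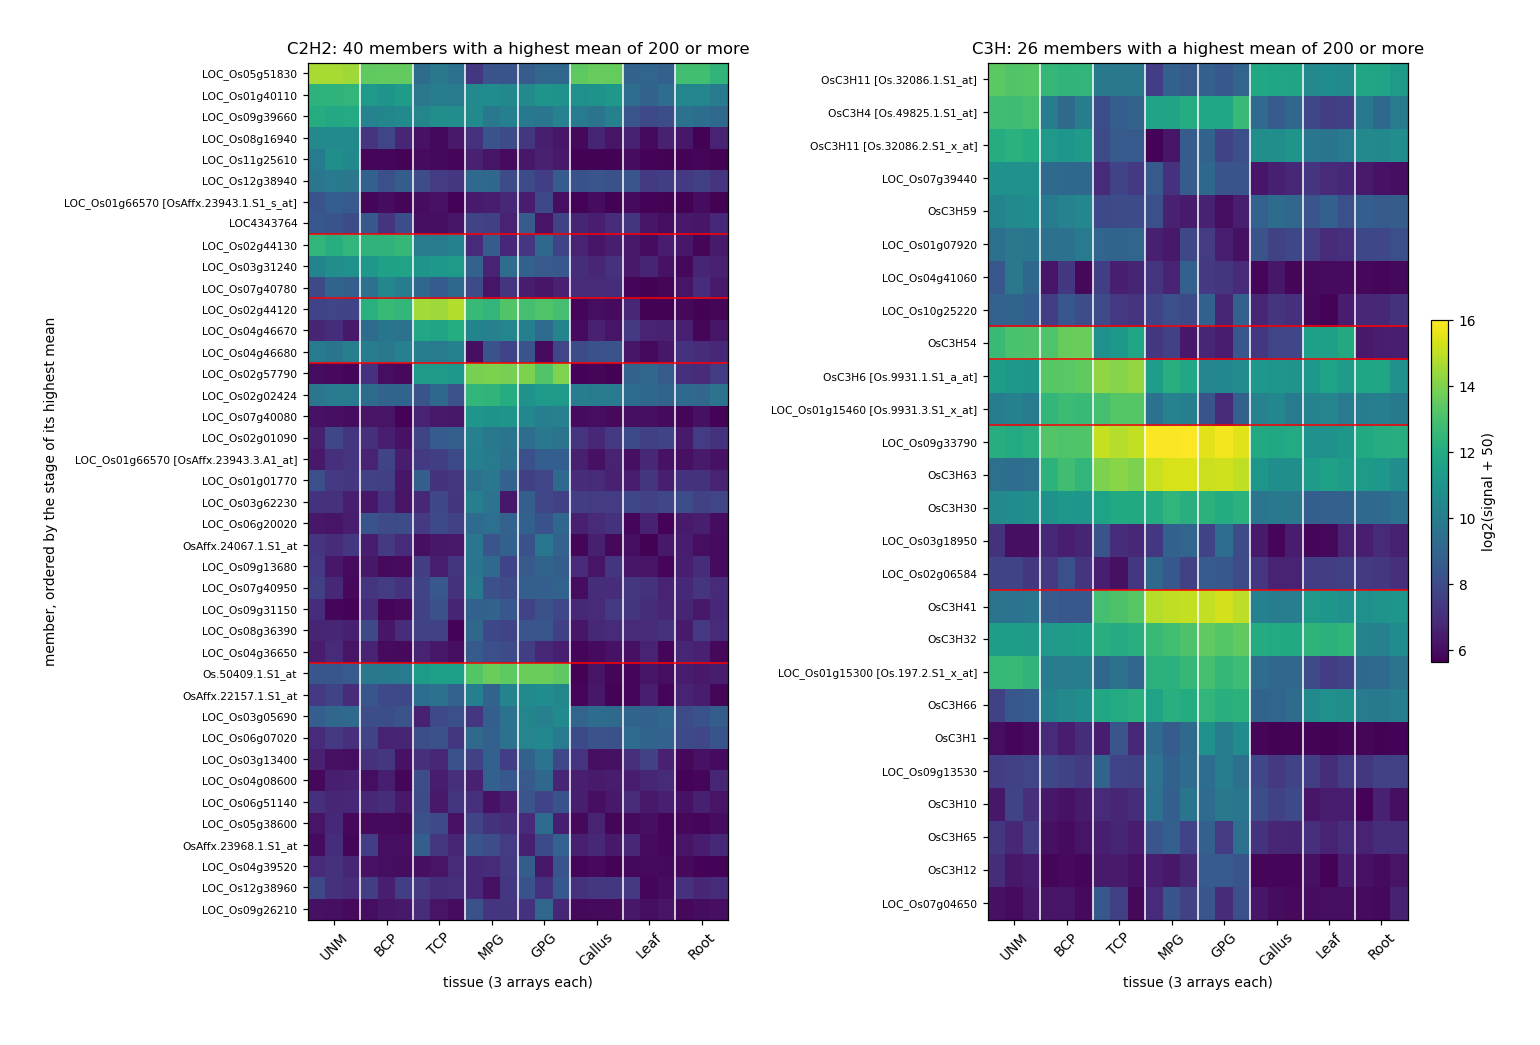
Signal of the 66 members with a highest mean of at least 200, as log2(signal + 50), in each of the 24 arrays (columns, 3 per tissue), with 40 C2H2 features on the left and 26 C3H features on the right. Rows are ordered by the pollen stage of the highest mean, with red lines between stages in the order UNM, BCP, TCP, MPG, GPG; the largest blocks are UNM, MPG and GPG for C2H2, and UNM and GPG for C3H.

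As deposited, 17 of the 81 members peaked in UNMs and 4 in BCP, while TCP was the highest stage of 6, MPGs of 23 and GPGs of 31. Of the 66 members at or above 200 these numbers were 16, 4, 5, 19 and 22. Among the C3H features at or above 200, the numbers were 8, 1, 2, 5 and 10, and among the C2H2 features 8, 3, 3, 14 and 12. The shares of the 66 were 24.2%, 6.1%, 7.6%, 28.8% and 33.3%, and those of all 25813 features with a mean of at least 200 and their highest tissue in pollen were 17.8%, 10.3%, 8.0%, 31.2% and 32.8%, so the shares peaking in MPGs and GPGs were near the background. These counts depended on scaling. With all arrays set to the same median signal the numbers for all 81 were, in the same order, 19, 10, 12, 15 and 25, and with arrays set to the hybridisation controls 27, 7, 29, 13 and 5. In GPGs, for example, the members' shares were 30.9% and 6.2% under these scalings, against 30.0% and 5.0% of all features highest in pollen. The stage of the highest mean was the same as deposited in 62 members under the first of these scalings and in 40 under the second. Without BCP replicate 2 the 4 members peaking in BCP became 8.

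The entry into the bicellular stage follows the first pollen mitosis, an asymmetric division that sets the large vegetative cell apart from the generative cell. From UNMs to BCP, 10 of the 74 members that passed a filter on low signals rose and 13 fell, by limma on log2(signal + 50) with a Benjamini-Hochberg adjusted p under 0.05 over all 47589 features tested and a log2 change of at least 1. Over all features 6.11% rose and 8.19% fell, and for the members the shares were 13.5% and 17.6%. The members were chosen for a high pollen stage, while all features include those highest in callus, leaf or root. What that choice did to the members' shares, here and in the later pollen comparisons, was not tested. The median change was -0.10 for the members and -0.01 for all features. With arrays set to the hybridisation controls 9 members rose and 19 fell, where 5.34% and 14.9% of all features did.

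The largest rise was that of LOC_Os02g44120, annotated as a C2H2 family protein. Its signal was 163, 174 and 171 in the UNM arrays and 4649.5, 6366 and 5691 in BCP, a log2 change of 4.67 ± 0.26 (SE) with an adjusted p of 2.5e-11 by limma. OsC3H63, a C3H protein annotated as ZFN-like, had 654, 596 and 667 in UNMs and 5103, 7231 and 5662 in BCP. It rose by 3.12 ± 0.20 on the log2 scale (limma adjusted p = 2.8e-10), so that every BCP array was several times above every UNM array. The C2H2 gene LOC_Os04g46670, annotated as a Cys2/His2 transcription factor, had 53.9, 78.5 and 30.8 in UNMs against 578, 768 and 702 in BCP, a log2 change of 2.83 ± 0.29 (limma adjusted p = 2.9e-07).

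The falls at this step include 2 C2H2 features with little signal after the microspore stage. LOC_Os11g25610 had 936, 1723 and 1384 in the UNM arrays, 6, 4.9 and 3.2 in BCP, and at most 47.5 in any other array. It fell by 4.63 ± 0.22 on the log2 scale, a value that the offset of 50 makes smaller than the ratio of the signals. Only its UNM arrays took it past the filter on low signals, so no p is given for this fall. LOC_Os08g16940 went from 1404, 1441 and 1481 to 100.5, 177 and 57.7 and fell by 3.27 ± 0.36 (limma adjusted p = 6.0e-07). Of its later arrays MPG replicate 2 was the highest, at 263. OsC3H4, a C3H feature annotated as an ATP binding protein, had 7182, 7068 and 7815 in UNMs and 1009, 554 and 1001 in BCP and fell by 3.08 ± 0.30 (limma adjusted p = 1.3e-07).

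Other members with their highest mean in UNMs are described by levels. LOC_Os05g51830, a C2H2 feature annotated as histone deacetylase 2b, of the plant-specific HD2 type of chromatin proteins, had 25699.7, 25446 and 23449 in UNMs and 11316, 11513 and 11692 in BCP. OsC3H11, annotated as a nucleic acid binding protein, had 10679, 9354 and 9689 in UNMs and 5923, 5404 and 5618 in BCP. Both were lower in every later pollen array than in any BCP array. In the same UNM arrays, 9 features of 8 tapetum and exine genes summed to 21828 to 24664. The sums were 8987 to 9457 in BCP, 9166 to 9416 in callus and 11399 to 11480 in leaf. The UNM sum came mostly through RTS (mean 12695 in UNMs and 1107 in BCP), a gene of the anther's nurse tissue. A feature of OsCP1 had a mean of 6614 in UNMs but its highest in leaf (11259). C6, CP1 and TDR, like RTS, were highest in UNMs, and CYP703A3, EAT1 and PTC1 in MPGs or GPGs. The 10 features of genes of dividing cells summed to 24911 to 28505 in UNMs, 4484 to 5720 in BCP and 18473 to 21481 in callus. The part of tapetum RNA or of dividing cells in the UNM signals of the members was not tested.

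The second pollen mitosis gives the sperm cells and leads to tricellular pollen. From BCP to TCP 12 of 74 members rose (16.2%, against 10.2% of all features) and 12 fell (16.2%, against 12.9%). The members' median log2 change was 0.38 and that of all features 0.14. The rises were led by a C2H2 and a C3H gene that were near their lowest pollen level in BCP.

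LOC_Os02g57790, a C2H2 feature annotated as a DNA-binding protein, had 88, 15.7 and 9.3 in the BCP arrays and 2291, 2455 and 2227 in TCP. The log2 change was 4.87 ± 0.28 (limma adjusted p = 1.0e-11), and it went on to 15026, 16020.1 and 14934 in MPGs. OsC3H41 is annotated as makorin-1, and makorins are RING-type ubiquitin ligases that also carry C3H fingers. Its signal was 736, 721 and 791 in UNMs, 348, 300.4 and 298 in BCP and 7703, 8654 and 10090.3 in TCP. From BCP to TCP it rose by 4.59 ± 0.18 on the log2 scale (limma adjusted p = 3.5e-14), and the 3 groups of arrays did not overlap. LOC_Os04g46670 rose again, to 3638, 3226 and 4212 in TCP, by 2.35 ± 0.29 (limma adjusted p = 1.9e-06).

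The HD2-type gene LOC_Os05g51830 had the largest fall from BCP to TCP, to 586, 826 and 703. It fell by 3.95 ± 0.25 on the log2 scale (limma adjusted p = 4.7e-11), and every TCP array lay below every BCP array. Both features of OsC3H11 fell: one to 865, 833 and 835, by 2.67 ± 0.26 (limma adjusted p = 5.1e-08), and the other from 2289.7, 2104 and 2599 to 213, 316 and 334, by 2.83 ± 0.46 (limma adjusted p = 5.2e-05). These falls held under all 3 other scalings, and so did the 3 rises.

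The members named for their TCP level were LOC_Os02g44120 and OsC3H6, a ZFN-like C3H gene with 2 features among the members. LOC_Os02g44120 had 24074, 22676 and 28223 in TCP, then 6306, 5526 and 9218 in MPGs and 7742, 9012 and 7759 in GPGs. OsC3H6 had 2681, 2232 and 2177 in UNMs, 10163, 10350.5 and 11407 in BCP, 19596, 17771 and 20296 in TCP and 2690.4, 4400.1 and 3654 in MPGs. Its second feature followed the same course, with means of 1025 ± 100, 6289 ± 523, 9168 ± 1069.7 and 963 ± 249 (SD, n = 3). TCP remained the highest stage of all 3 features under both the median and the hybridisation control scaling.

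Between TCP and MPGs the grains fill, dry and are shed. As deposited, 28 of 74 members rose (37.8%, against 27.0% of all features) and 13 fell (17.6%, against 11.9%). The median log2 change of all features was 0.55, and that of the members 0.77. With all arrays at the same median signal the shift of all features was -0.08, 12 of 70 members rose and 17 fell, where 6.54% and 21.5% of all features did. With quantile normalization 19 rose and 16 fell, against 13.0% and 15.7% of all features. With the hybridisation controls the shift was -0.58, and 5 of 64 members rose and 21 fell, against 1.33% and 32.4%. Calls kept under every scaling were not counted over all features, so their numbers among the members have no background here. Each of the other 3 scalings lowered MPGs against TCP (median of all features 0.10 with quantile normalization). Falls were therefore easier to keep under them than rises, and the numbers kept do not measure how firm the falls are. All 13 members that fell as deposited also fell under the other 3 scalings, while 5 of the 28 that rose did so under all of them.

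Those 5, picked out here after their values were seen, were LOC_Os07g40080, LOC_Os02g02424, both features of the OsC3H4 locus, and the C2H2 feature OsAffx.24067.1.S1_at. LOC_Os07g40080, a C2H2 gene annotated as zinc-finger protein 1, had 53, 32.1 and 28.5 in the TCP arrays and 2040.4, 1970.3 and 2024 in MPGs, and at most 22.4 in any UNM, BCP or sporophytic array. Its log2 change was 4.56 ± 0.19 (limma adjusted p = 2.8e-12), which is 4.02 above the median of all features, and 2.81 with the hybridisation controls. LOC_Os02g02424, annotated as like the X-linked zinc finger protein ZXDA of mammals, had 268, 504 and 264 in TCP and 5694, 5447 and 4206 in MPGs. It rose by 3.75 ± 0.23 (limma adjusted p = 1.3e-10), and by 1.94 with the hybridisation controls. OsC3H4 came back from 224, 375 and 448 in TCP to 3190.5, 3254 and 4212 in MPGs, a log2 change of 3.21 ± 0.30 (limma adjusted p = 3.1e-08) or of 1.42 with those controls.

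OsC3H54, a C3H protein annotated as RNA binding, fell most. It had 6169, 8233 and 8714 in UNMs, 9148, 12382 and 12711 in BCP, 1778, 2276 and 3497 in TCP and 111, 152 and 29.1 in MPGs. From TCP to MPGs it fell by 4.17 ± 0.41 on the log2 scale (limma adjusted p = 5.2e-08), and in leaf it was again at 2793, 2805 and 3843. The second feature of OsC3H6 had 7934, 9839.5 and 9730.1 in TCP and 685, 1166 and 1037 in MPGs and fell by 3.21 ± 0.34 (limma adjusted p = 1.5e-07). LOC_Os03g31240, a C2H2 family gene with its highest mean in BCP, went from 2001, 2236 and 2469 in TCP to 425, 51.8 and 597 in MPGs, and fell by 2.85 ± 0.44 (limma adjusted p = 2.1e-05).

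During germination in vitro few members changed. From MPGs to GPGs 5 of 74 members rose (6.8%, against 3.0% of all features) and 5 fell (6.8%, against 4.67%), with a median log2 change of 0.13 for the members and -0.04 for all features. This comparison lies within the 6 arrays that stand apart, but its calls rest on a spread pooled over all 8 tissues. Fitted on the 6 arrays alone, limma called none of 66 members and none of 38103 features, while 5 members rose and 6 fell by the same log2 change at an unadjusted p under 0.05. With the hybridisation controls limma called no rise and 2 falls, where 2 members rose and 4 fell at that unadjusted p, and 0.0796% and 0.557% of all features were called. Without MPG replicate 3 limma called 8 rises among the members, and 1794 rises among the 46468 features then tested.

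The largest rise in GPGs was that of the C3H feature of OsC3H12, a rice gene known for a part in resistance to bacterial blight. It had 42.4, 30 and 59 in MPGs and 340.0, 347 and 276 in GPGs, a log2 change of 1.99 ± 0.22, and at most 76.3 in any other array. It passed the filter on low signals only through its GPG arrays, where it was high, so no p is given for its rise. The 3 other features of OsC3H12 on the array are not members and were picked out here after their values were seen. They had means of 1580, 181.1 and 2095 in MPGs and 1460, 154.0 and 2199 in GPGs. Their log2 changes were -0.13, -0.36 and 0.05, with adjusted p of 0.74, 0.64 and 0.91 by limma. The features of this gene therefore differed in course.

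The C2H2 gene LOC_Os03g05690 had 106, 384 and 675 in MPGs and 1253, 1078 and 1478 in GPGs (log2 change 1.84 ± 0.42, limma adjusted p = 0.0078). The spread within MPGs was wide, but no array of one group reached the other. LOC_Os06g51140, also C2H2, had 85.3, 20.6 and 41.9 against 278, 159 and 258 (log2 change 1.53 ± 0.33). Without its GPG arrays it would not have passed the filter on low signals, so no p is given for its rise. The other 2 rises, named after their values were seen, were those of OsC3H1 and the C2H2 gene LOC_Os06g07020.

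Both features of OsC3H6 fell further in GPGs. The second feature had 685, 1166 and 1037 in MPGs and 277, 71 and 417 in GPGs and fell by 1.91 ± 0.34 on the log2 scale (limma adjusted p = 0.0013). The first fell to 1291, 1391 and 1543, by 1.29 ± 0.23 (limma adjusted p = 0.0014), and with the same median signal its adjusted p by limma was 0.070. The feature OsAffx.23943.3.A1_at of the C2H2 locus LOC_Os01g66570 had 1073, 901 and 686 in MPGs and 239, 381 and 378 in GPGs and fell by 1.29 ± 0.33 (limma adjusted p = 0.016, and 0.13 with the same median signal). Its call was lost without MPG replicate 1, when its log2 change was -1.15 (limma adjusted p = 0.0525), and without GPG replicate 1, when it was -1.10 (limma adjusted p = 0.0578). The other 2 falls, named after their values were seen, were LOC_Os02g02424 and LOC_Os04g36650, both C2H2.

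Set over the whole course, late pollen (the mean of MPGs and GPGs) was compared with early pollen (the mean of UNMs and BCP), using the arrays of the comparisons above. As deposited, 42 of 74 members rose (56.8%, against 40.6% of all features) and 17 fell (23.0%, against 19.6%). The median log2 change was 1.27 for the members and 0.74 for all features. With the same median signal the shift of all features was -0.08, and 17 of 70 members rose and 22 fell, against 13.7% and 31.7% of all features. With the hybridisation controls the shift was -0.67, and 6 of 64 rose and 26 fell, against 4.69% and 42.2%. With quantile normalization 31 rose and 17 fell, against 22.9% and 23.7%. The 17 members that fell as deposited fell under the median and the hybridisation control scaling too, and 14 of them under all 4. Each other scaling lowered late against early pollen (median of all features 0.20 with quantile normalization), so falls were easier to keep than rises. Neither falls nor rises kept under every scaling were counted over all features, so such numbers of members have no background here. The plot of log2 changes by scaling shows these shifts member by member.

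**Figure D2:**
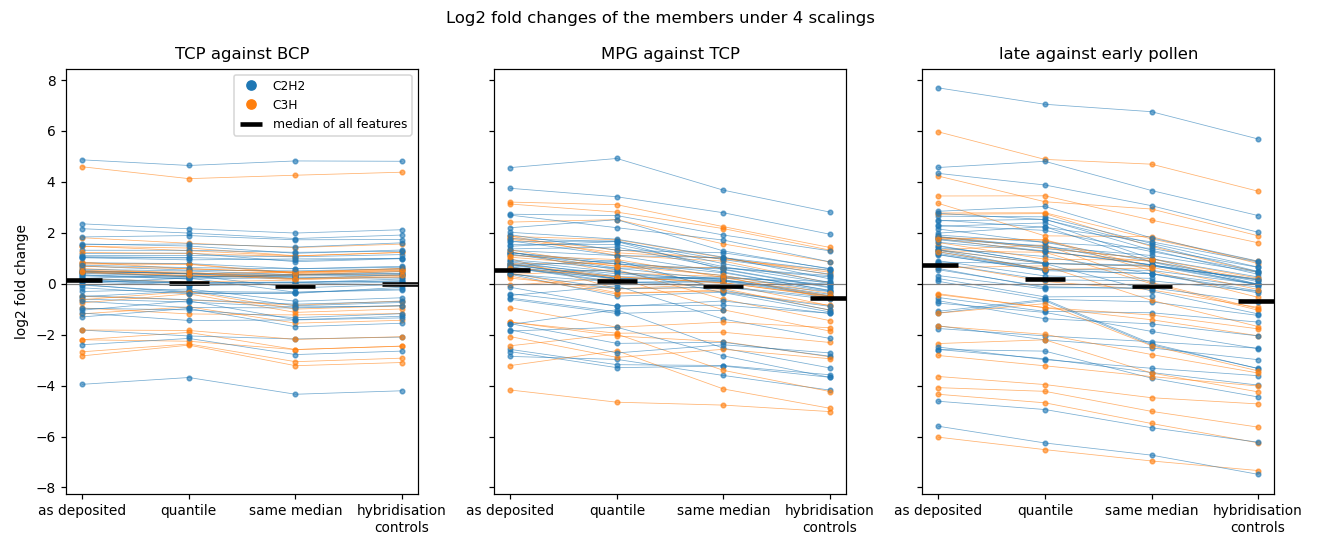
Log2 fold change of each tested member (C2H2 blue, C3H orange, lines joining 1 member) in 3 comparisons under 4 scalings, with the median of all tested features as a black bar. From TCP to MPG the bar moves from 0.55 as deposited to -0.58 with the hybridisation controls, and from early to late pollen from 0.74 to -0.67, while the members keep nearly the same order.

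The 6 members that rose in late pollen under all 4 scalings, picked out after their values were seen, were the C3H genes OsC3H63, OsC3H41 and OsC3H1 and the C2H2 features LOC_Os02g57790, LOC_Os07g40080 and Os.50409.1.S1_at. LOC_Os02g57790 had at most 88.0 in any UNM or BCP array, and 15026, 16020.1 and 14934 in MPGs and 15750.3, 9291 and 16496 in GPGs. Its log2 change of 7.69 ± 0.20 (limma adjusted p = 1.2e-18) was the largest of the tested members, and 5.69 remained with the hybridisation controls. OsC3H41 rose by 5.97 ± 0.13 (limma adjusted p = 1.1e-19), from at most 791 in the early arrays to 29394, 33173 and 34284 in MPGs and 34018, 40634 and 31599 in GPGs, or by 3.64 with those controls. LOC_Os07g40080, with 1337, 1028 and 1104 in GPGs, rose by 4.57 ± 0.14, or by 2.68 with those controls. It passed the filter on low signals only through late pollen, so no p is given for this rise.

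Other members with their highest mean in MPGs or GPGs are given by levels. LOC_Os09g33790, a C3H feature annotated as an interactor of SnRK1, the plant kinase that senses low energy, had 4327, 3961 and 4611 in UNMs, 35255, 29594 and 33646 in TCP, 63274, 63362 and 67798 in MPGs and 47014, 57826 and 45591 in GPGs. OsC3H63 had 15786, 18061 and 16070.5 in TCP, 35823, 42201 and 42290.3 in MPGs and 36693, 39103 and 32962 in GPGs. In both, TCP lay between early and late pollen without overlap as deposited, but the order of TCP and late pollen depended on scaling. With the same median signal LOC_Os09g33790 had means of 36302 in TCP and 35551 in MPGs, and with the hybridisation controls 36337 and 19695. OsC3H63 stayed highest in MPGs with the same median signal (18292 in TCP and 22103 in MPGs) and was highest in TCP with the hybridisation controls (18154 and 12136). The C2H2 feature Os.50409.1.S1_at, without a locus in the table, had 829, 873 and 929.6 in BCP, 2421, 2824 and 2844 in TCP and 12875, 12559 and 10846 in GPGs. It stayed at or below 39.7 in every sporophytic array. OsC3H32, of the C3H family, had 6437, 7502 and 8757 in MPGs and 11193, 9805 and 11236 in GPGs against 5321, 4958 and 5441 in leaf.

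**Figure D3:**
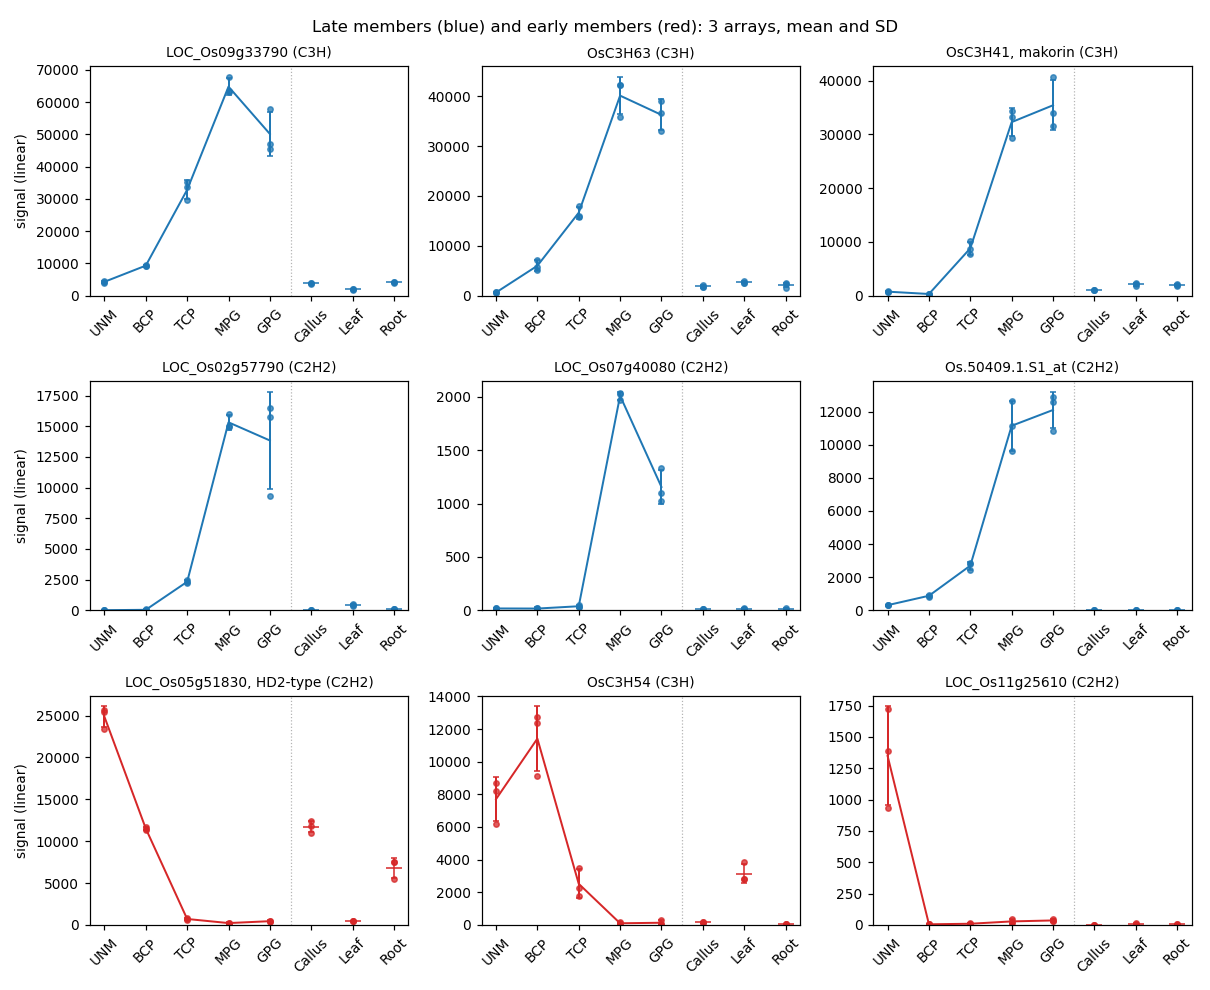
Signal (linear, as deposited) of 6 members high in late pollen (blue) and 3 high in early pollen (red) in the 5 pollen stages, joined by a line, and in callus, leaf and root. Points are the 3 arrays, lines or bars the mean, and error bars the SD; LOC_Os07g40080 is near 0 until TCP and at 1970 to 2040 in MPG, and LOC_Os11g25610 is near 0 in every tissue but UNM.

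In the other direction OsC3H54 fell by 6.02 ± 0.29 on the log2 scale from early to late pollen (limma adjusted p = 5.9e-14), to 59.6, 38 and 298 in GPGs. LOC_Os05g51830, the HD2-type gene, fell by 5.59 ± 0.17 (limma adjusted p = 3.8e-17), from at least 11316 in every early array to 109, 263 and 275 in MPGs and 343, 483 and 502 in GPGs. LOC_Os02g44130, a C2H2 gene annotated as a Cys2/His2 transcription factor, had 5519, 4301 and 5658 in UNMs, 5304, 5234 and 5907 in BCP, 67.6, 354 and 64.9 in MPGs and 108, 516 and 170.5 in GPGs. It fell by 4.61 ± 0.29 (limma adjusted p = 7.2e-12). For all 3 the early and late arrays did not overlap. The falls were larger with the same median signal and with the hybridisation controls, but both of these lowered late pollen over all features.

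Several members lie near each other on a chromosome, here taken as locus numbers at most 200 apart, which for some pairs leaves other loci between them, and several of these pairs differed in course. On chromosome 2, LOC_Os02g44130 was high in UNMs and BCP, while LOC_Os02g44120, the preceding locus number, rose to TCP. In TCP the first had 952, 952 and 1108, well below its BCP arrays, and the second was at its highest. On chromosome 4, LOC_Os04g46680 kept 911 ± 136, 976 ± 111 and 1003 ± 112 through UNMs, BCP and TCP (SD, n = 3) and had 17.5, 271 and 159 in MPGs, whereas LOC_Os04g46670 reached 3692 ± 495 in TCP and kept 1182 ± 96.1 in MPGs. Both pairs are annotated as C2H2 proteins, and the gene with the lower locus number rose to TCP in each.

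On chromosome 1, OsC3H1 (LOC_Os01g07930) had means of 10.9 ± 3.75 in UNMs, 127 ± 136 in TCP and 495 ± 118 in MPGs, and 1943, 988 and 1524 in the GPG arrays. LOC_Os01g07920, which the table classes as C3H although its annotation is a prolyl 4-hydroxylase, went the other way, with 747 ± 77.7 in UNMs, 462 ± 12 in TCP, 87.3 ± 87.5 in MPGs and 63 ± 57.7 in GPGs. Also on chromosome 1, but not adjacent, OsC3H6 (LOC_Os01g15460) was highest in TCP, the pollen stage in which OsC3H4 (LOC_Os01g15300) was lowest. The plot of nearby loci shows these 4 pairs.

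**Figure D4:**
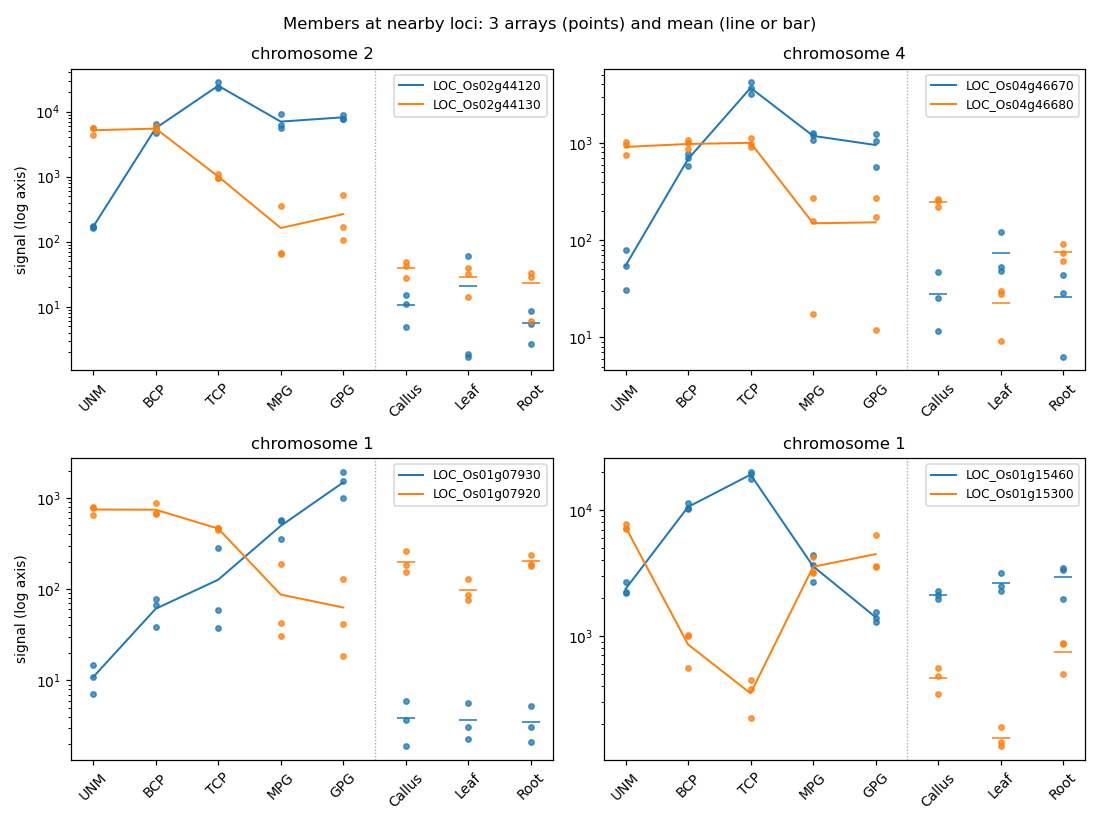
Signal on a log axis of 4 pairs of members at nearby loci, with points for the 3 arrays, lines through the means of the 5 pollen stages, and bars for the means of callus, leaf and root. In the pairs on chromosomes 2 and 4 one gene rises to TCP while the other is lower in MPG than in UNM, and in both pairs on chromosome 1 the courses cross.

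The other pairs had lower signals in at least 1 gene. LOC_Os07g40780 had 702, 1325 and 999.5 in BCP and 206, 25.3 and 103 in MPGs, and LOC_Os07g40950 had 98.2, 128 and 93.4 in BCP and 855, 243 and 214 in MPGs, each in its brighter feature. LOC_Os09g13530 (C3H) and LOC_Os09g13680 (C2H2) both had their highest means in late pollen, 747 ± 193 in GPGs and 482 ± 302 in MPGs. LOC_Os12g38940 had 833 ± 61.4 in UNMs and 237 ± 112 in GPGs, and LOC_Os12g38960 117 ± 62.5 and 218 ± 113, a difference within the spread of its arrays. LOC_Os05g38600, at 68.2, 577 and 41 in GPGs, owed its mean to 1 array. LOC_Os05g38620, paired with it, and LOC_Os07g39970, paired with LOC_Os07g40080, were below 200.

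Where a locus had 2 member features, these agreed for some and not for others. The features of OsC3H6 and of OsC3H11 agreed in their stage of highest mean. Those of OsC3H4 both had a high signal in UNMs, a low one in TCP and a high one in GPGs: 7355, 349 and 4478 in one, and 5972, 557 and 6890.5 in the other, so that as deposited the highest stage was UNMs for the first and GPGs for the second, while both were highest in UNMs with the same median signal and with the hybridisation controls. For LOC_Os01g66570 one feature was highest in UNMs (277, 379 and 316) and at 34.5, 36.5 and 61.9 in MPGs, while the other had 31.6, 82.9 and 97.5 and 1073, 901 and 686. For LOC_Os07g40780 the feature given above had a mean of 1009 in BCP and the other at most 103.2 in any array, and for LOC_Os07g40950 one had 437 ± 362 in MPGs and the other a highest mean of 131.1. Features marked A1, which for these loci were one of each discordant pair, and those marked _x_at or _s_at, whose probes can match related transcripts, are less certain as measures of 1 gene. Other named members carry such marks: A1 for LOC_Os02g02424 and LOC_Os09g39660, and _s_at for LOC_Os09g39660 and LOC_Os03g05690. Marked _x_at are LOC_Os01g07920, LOC_Os09g13530, LOC_Os09g13680 and LOC_Os09g26210. So are the second features of OsC3H6 and OsC3H11, and the OsC3H4 feature highest in GPGs as deposited.

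Among the sporophytic tissues, which the choice of members used only as an upper limit, callus was compared with the mean of leaf and root. There 5 of 74 members were higher in callus (6.8%, against 13.4% of all features) and 3 lower (4.1%, against 12.2%), or 4 and 4 with quantile normalization, where 12.2% and 11.5% of all features were. The choice of members limited their sporophytic signals relative to pollen, and 24 members had a highest sporophytic mean of at least 200. What that choice and the offset of 50 did to these shares was not tested. LOC_Os05g51830 had 10992, 12370.3 and 11852 in callus, 448, 470.3 and 404 in leaf and 7491, 7469 and 5446 in root, and was higher in callus by 2.69 ± 0.21 on the log2 scale (limma adjusted p = 2.1e-09). The HD2-type gene was high in UNMs, callus and root and low in leaf and late pollen, as was the summed signal of genes of dividing cells, which was 13952 to 15890 in root and 954 to 1301 in leaf. The 2 parted in BCP, where that sum was at its late pollen level and the gene was not. Genes within the sum differed, as was seen after their values were known. MCM3, MCM5 and MCM7 had higher means in GPGs than in callus (MCM5 1452 and 1149), and the others on the list lower ones (PCNA 294.7 and 7210). The part of dividing cells in the signal of the HD2-type gene was not tested.

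LOC_Os04g46680 had 219, 254 and 267 in callus against 28.2, 9.2 and 29.8 in leaf and 91.6, 74.4 and 60.9 in root, a log2 difference of 1.64 ± 0.41 (limma adjusted p = 0.0031). OsC3H10, a C3H feature, had 223, 152 and 197 in callus and at most 45.3 in leaf or root, a difference of 1.63 ± 0.27 (limma adjusted p = 4.8e-05). The other 2 members higher in callus, named after their values were seen, were LOC_Os01g40110 and LOC_Os09g39660, both highest in UNMs among the pollen stages. Lower in callus were LOC_Os02g57790, with 3.1, 4.7 and 1.9 in callus, 438, 484 and 332 in leaf and 82.8, 74.3 and 124 in root (log2 difference -2.27 ± 0.24, limma adjusted p = 1.4e-07), and OsC3H66, a ZFN-like C3H gene, with 454, 465 and 581, 1508, 1795 and 1664 and 945, 870.4 and 1014 (log2 difference -1.25 ± 0.21, limma adjusted p = 5.8e-05). The third, OsC3H54, named after its values were seen, was high in leaf and not in root, and its callus arrays lay between both.

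Of other zinc finger genes with a RefSeq name of these kinds, 62 features lie outside the members, 55 of them named as OsC3H genes (39 genes). Of the 52 of these that were tested, 6 rose and 20 fell from early to late pollen as deposited, with a median log2 change of -0.51, where 40.6% and 19.6% of all features did. With the same median signal 1 of 51 rose and 32 fell, against 13.7% and 31.7% of all features, and with the hybridisation controls limma called 0 of 52 higher and 37 lower, the same numbers as at an unadjusted p under 0.05, against 4.69% and 42.2%. From UNMs to BCP, as deposited, 2 rose and 11 fell with a median of -0.33, against 6.11% and 8.19%. The 27 C3H members had 15 rises and 8 falls in late pollen as deposited and a median of 1.29, 6 and 10 with the same median signal, and, of 24 tested, 3 and 12 with the hybridisation controls, but they were chosen for pollen signal, so the difference between the lists is no finding about C3H genes. A gene can also have features on both sides. Among members whose gene has a RefSeq name of these kinds, this held for 3, namely OsC3H63, OsC3H65 and OsC3H12, and other members were not searched. The genes of these 3 had 5 further features. The second feature of OsC3H63 had a mean of at most 63.8 in any tissue, and that of OsC3H65 had 1142 in UNMs, 1565 in callus and 1887 in root.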

How the data were processed

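The intensity values are MAS5 signals computed by the authors in GCOS, each array being scaled to an average of 500; the labels name no versions, and detection calls were not used here. All 24 deposited columns were mapped to tissues by their labels. Of 57381 features 123 array controls were left out, and 47589 with a signal of at least 100 in at least 3 arrays were tested; 74 of the 81 members passed. Tests used limma (version 3.58.1, R version 4.3.3) on log2(signal + 50), so that folds of low signals are understated, with 1 mean per tissue, the spread pooled over all arrays, and Benjamini-Hochberg adjustment over all features tested. A call needed an adjusted p under 0.05 and a log2 change of at least 1. A member that passed the filter only through the side of a comparison where it was high is named without a p. The code was tested on simulated data. The number of arrays, 3 per tissue, limits the precision.

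The members and lists were chosen with earlier results of these data known. Only the identifiers, families, clusters, loci and annotations of the study's table were read, none of its ratio or Z columns. Members with a highest tissue mean of at least 200 were named with a test where they were among the 3 largest rises or falls called in a comparison with arrays that did not overlap, and by level where they were among the 3 highest at a stage, shared a locus, had locus numbers within 200 of each other on a chromosome, or lay nearest a limit. RefSeq genes were matched through the array's probe table by symbol or synonym. Alternatives were offsets of 16 and 100, no filter, a filter of 200, 3 other scalings, only the groups compared, the replicate number as a block, medians in place of means, and each array left out. Python 3.11.15 with numpy 2.4.6, pandas 2.3.3 and matplotlib 3.10.9 made the tables and figures.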

Additional observations from a re-analysis of the deposited data

How the results depend on the processing

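Of 360 member counts under an alternative, 22 moved by more than 1.5 times from the count reported. Set to the hybridisation controls, 5 members rose and 21 fell from TCP to MPGs, 6 rose and 26 fell from early to late pollen, 0 rose and 2 fell from MPGs to GPGs, and TCP was then the highest stage of 29 members, the UNM stage of 27, the MPG stage of 13, BCP of 7 and the GPG stage of 5. At the same median signal, 12 rose from TCP to MPGs and 17 from early to late pollen, and 10, 12 and 15 members peaked in BCP, TCP and MPGs. From MPGs to GPGs 2 members fell at that setting, and 542 of 45781 features did. With an offset of 16, 3 members and 1758 of 47589 features fell from MPGs to GPGs. With only the groups compared limma called 0 rises and 0 falls there, with 5 and 6 members at an unadjusted p under 0.05. With a replicate left out, the rises from MPGs to GPGs numbered 4 to 8, the highest without MPG replicate 3, and the members peaking in BCP 4 to 8, the highest without BCP replicate 2. Why these counts moved was not tested. The log2 changes of named members kept their sign in all 568 values under an alternative, and the call was lost in 13 of these, all from MPGs to GPGs. The replicate number used as a block gave 7 rises in place of 5 from MPGs to GPGs, with 1494 over all 47589 features in place of 1427. It changed no other member count. Same-numbered arrays of 2 tissues correlated in their deviations by -0.05 to 0.18, so the numbers were not taken to pair the arrays. Signals below about 100 are near the array's background, so that changes between 2 such values have no measured size.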
